A study of Rattus norvegicus with 6 samples.

Results

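The genes described here are the most abundant mRNA genes of the rat lens capsule after injection of sodium selenite (Na2SeO3) or saline. Members were chosen by their measured abundance. The count of each gene was scaled to CPM, its share of the column total times 1000000, averaged over the 6 samples, and the genes of ranks 1 to 100 were taken, with equal values ordered by ID. Of these, 3 genes were among 15 IDs that were set aside, which left 97 of the 22263 genes in the mRNA table. The average spans both groups, so a gene could enter through a high level in 1 group alone, and the difference between the groups bore on which genes were taken. At the lower edge, ranks 98, 99 and 100 had mean levels of 729.7, 729.1 and 718 CPM, and the first 3 genes outside had 713, 712 and 708 CPM.

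Sprague Dawley rat pups of the Na2SeO3 group were given 20 µmol/kg of the salt under the skin of the neck on days 3, 5 and 7, while saline was given to the control pups in its place. The study's methods give the pups as just over a week old when taken into the model. Day 15 is there a day of the experiment, so these days are not ages. Tissue was collected on day 15, and total RNA of the lens capsule was sequenced from 6 lenses, of 3 rats per group. The sex of the pups is not given in the sources used here, and the labels name no genetic change in either group. The deposited mRNA counts summed to between 11874219 and 16120616 per sample, and each of the 97 genes had at least 989 counts in every sample, so all of them passed the filter on low counts and counting error was small. The labels give no sequencing batch or date.

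The lens is a closed tissue of an epithelial sheet and the fibre cells that arise from it, wrapped in a thick basement membrane, the capsule. Fibre cells fill with crystallins, the soluble proteins that give the lens its refractive power, and discard their nuclei and other organelles as they mature. A small number of transcripts can therefore make up a large share of lens RNA, beside the housekeeping transcripts (ribosomal, mitochondrial, cytoskeletal and metabolic) that are abundant in most tissues. Selenite given to young rats before the lens has matured is known to cloud its centre. The counts are keyed by Ensembl gene IDs that the files and reference tables used here do not pair with symbols. Genes are therefore named by ID, the function of a given ID is not stated, and lens markers could not be checked against the tissue label. CPM is not corrected for transcript length, so levels are compared between samples within a gene. Only the ranks order genes by CPM, so the most abundant genes here are those with the most counts, which favours long transcripts. In bulk RNA, fewer cells of a type and less RNA per cell cannot be told apart.

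Which of the most abundant genes fell after Na2SeO3, and which held their level, was asked with the edgeR quasi-likelihood test fitted on all 14906 genes that passed the filter. Of the 97 genes, 19 were down-regulated in the Na2SeO3 group, at a Benjamini-Hochberg adjusted p under 0.05 and a log2 fold change under -1, and these 19 lay at 2.42% to 40.1% of their control level. That is 19.6% of the abundant genes, beside 5.23% of all genes tested, but the selection bears on this count. In 10 of the 19 the Na2SeO3 mean lay under the 718 CPM of the last rank, whereas the control mean did so in 0 of them, and a list ranked on the Na2SeO3 samples alone held 9 down-regulated genes. None was up-regulated past a log2 fold change of 1. With that fold, 0 genes passed edgeR at an unadjusted p under 0.05 and 0 were called by DESeq2, while 2.52% of all genes tested were up-regulated. A further 24 genes were lower and 24 were higher at the adjusted p with a smaller change, and 30 passed in neither direction. Counting changes of any size, 43 of the 97 (44.3%) were lower, against 23.7% of all genes tested, and 24 (24.7%) were higher, against 23.2%. With libraries scaled by total counts in place of TMM factors this balance turned over, to 31 lower, against 14.3% of all genes tested, and 46 higher, against 41.1%. Abundant genes vary less between samples, with a median standard deviation of log2 CPM in the Na2SeO3 group of 0.04, against 0.11 over all genes tested. Small changes therefore passed more readily among the 97.

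**Figure D1:**
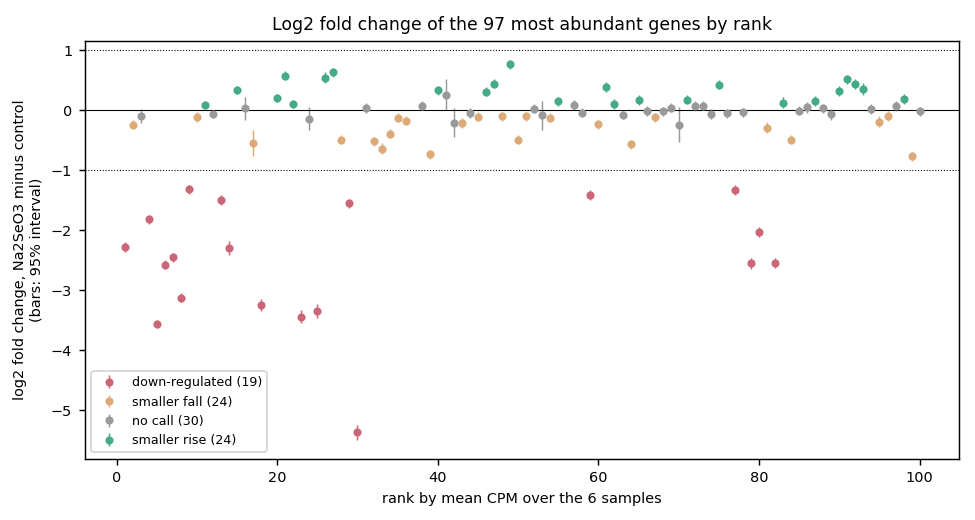
Log2 fold change of each of the 97 genes (Na2SeO3 minus control, with the 95% interval as a bar) against its rank by mean CPM over the 6 samples, coloured by call; dotted lines mark a log2 fold change of 1 in each direction. The 19 down-regulated genes lie at -1.32 or lower and the remaining 78 between -0.77 and 0.77.

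The falls were separated from the rest by a gap. The smallest fall among the 19 was -1.32 on the log2 scale and the nearest of the other genes was at -0.77, so no gene lay between these values and any fold threshold set within the gap gives the same 19. Of the 19, 14 were within ranks 1 to 50. The control level that makes a fall large also raises the rank, so this is not read as a result. The median log2 fold change was -2.45 over the 19, -0.01 over the remaining 78, -0.07 over all 97 and 0.01 over all genes tested. The number of falling genes depended on which samples set the ranks. With ranks taken from the control samples alone 23 genes were down-regulated, in place of 19 by the mean of both groups and 9 by the Na2SeO3 samples alone. Ranking on the control samples favours genes that fell, and ranking on the Na2SeO3 samples works against them. Over all genes tested, 5.23% were down-regulated.

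The deepest fall was that of a single gene. ENSRNOG00000017996 (rank 30) had 3237, 3276 and 3485 CPM in control replicates 1, 2 and 3 and 90.6, 77.1 and 73.8 CPM in Na2SeO3 replicates 1, 2 and 3, with a log2 fold change of -5.37 ± 0.06. It kept 2.42% of its control level (edgeR adjusted p = 1.07e-31), and every Na2SeO3 sample lay far below every control sample. Its fall was larger than that of the next gene by 1.81 log2 units, where 2 times the combined standard error was 0.135.

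Another 5 genes kept between 8.45% and 11.5% of their control level. ENSRNOG00000008700 (rank 5) had 12662, 12637 and 12899 CPM in control replicates 1, 2 and 3 and 1075, 1086 and 1069 CPM in Na2SeO3 replicates 1, 2 and 3, with a log2 fold change of -3.56 ± 0.03. For ENSRNOG00000014950 (rank 23) the control values were 3588, 3653 and 3574 CPM and the Na2SeO3 values 372, 308 and 314 CPM, a log2 fold change of -3.44 ± 0.05. ENSRNOG00000049770 (rank 25) stood at 3564, 3447 and 3481 CPM in the control samples and at 394, 318 and 323 CPM in the Na2SeO3 samples, giving -3.34 ± 0.06. In all 3 genes the control samples lay close together, and the Na2SeO3 samples of the first were tighter than those of the others. ENSRNOG00000038355 (rank 18) had 3904, 4094 and 4244 CPM in control replicates 1, 2 and 3 and 477, 408 and 406 CPM in Na2SeO3 replicates 1, 2 and 3, with a log2 fold change of -3.25 ± 0.05. For ENSRNOG00000047653 (rank 8) the control values were 5672, 5366 and 5293 CPM and the Na2SeO3 values 629, 620.3 and 628 CPM, a log2 fold change of -3.12 ± 0.04. The groups did not overlap in any of the 5, with edgeR adjusted p-values from 6.48e-33 to 3.10e-27. Each neighbouring pair in this order of 5 differed by less than 2 times its combined standard error, so their exact order is not resolved, whereas the step from the last of them to the next fall was 0.543 log2 units.

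The next 7 genes kept between 16.7% and 24.5% of the control level. ENSRNOG00000050023 (rank 6) had 10321, 10579 and 10870.4 CPM in control replicates 1, 2 and 3 and 1856, 1755 and 1710.0 CPM in Na2SeO3 replicates 1, 2 and 3, with a log2 fold change of -2.58 ± 0.04. For ENSRNOG00000003132 (rank 79) the control values were 1546, 1596 and 1616 CPM and the Na2SeO3 values 289, 262 and 261 CPM, a log2 fold change of -2.55 ± 0.04. ENSRNOG00000005707 (rank 82) stood at 1577, 1569 and 1530.5 CPM in the control samples and at 272, 262 and 268 CPM in the Na2SeO3 samples, giving -2.54 ± 0.04. These 3 falls differed from each other by less than 2 times their combined standard error. ENSRNOG00000032926 (rank 7) had 5602, 5573 and 5717 CPM in control replicates 1, 2 and 3 and 1055, 1016 and 1015 CPM in Na2SeO3 replicates 1, 2 and 3, with a log2 fold change of -2.45 ± 0.04. For ENSRNOG00000047673 (rank 14) the control values were 4419.6, 4426 and 4236 CPM and the Na2SeO3 values 1018, 821 and 825 CPM, a log2 fold change of -2.30 ± 0.05. ENSRNOG00000047175 (rank 1) stood at 20132, 19722 and 19379.9 CPM in the control samples and at 4493, 3829 and 3882 CPM in the Na2SeO3 samples, giving -2.28 ± 0.04. The last of these held the first rank of the whole table, and Na2SeO3 replicate 1 was the highest Na2SeO3 sample in all 3. ENSRNOG00000001251 (rank 80) had 1480.0, 1451 and 1481 CPM in control replicates 1, 2 and 3 and 344, 377 and 358 CPM in Na2SeO3 replicates 1, 2 and 3, with a log2 fold change of -2.03 ± 0.04. Here Na2SeO3 replicate 1 was the lowest. In each of the 7 the groups were apart, with edgeR adjusted p-values from 1.00e-28 to 1.44e-23.

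The remaining 6 down-regulated genes kept between 28.4% and 40.1% of the control level. ENSRNOG00000032219 (rank 4) had 12336, 11353 and 11284 CPM in control replicates 1, 2 and 3 and 3219, 3322 and 3386 CPM in Na2SeO3 replicates 1, 2 and 3, with a log2 fold change of -1.82 ± 0.04. For ENSRNOG00000002331 (rank 29) the control values were 2508, 2624 and 2538 CPM and the Na2SeO3 values 919.8, 847 and 852 CPM, a log2 fold change of -1.55 ± 0.04. ENSRNOG00000014790 (rank 13) stood at 3999.8, 3832 and 3679 CPM in the control samples and at 1364, 1328 and 1389.7 CPM in the Na2SeO3 samples, giving -1.50 ± 0.04. The first of these fell further than the others of this set by more than 2 times the combined standard error. ENSRNOG00000050420 (rank 59) had 1587, 1542 and 1472 CPM in control replicates 1, 2 and 3 and 557, 565 and 604 CPM in Na2SeO3 replicates 1, 2 and 3, with a log2 fold change of -1.41 ± 0.04. For ENSRNOG00000013928 (rank 77) the control values were 1357, 1294 and 1286 CPM and the Na2SeO3 values 497, 538 and 535 CPM, a log2 fold change of -1.33 ± 0.04. ENSRNOG00000011986 (rank 9) stood at 4154, 4179.9 and 4221 CPM in the control samples and at 1659, 1696 and 1677 CPM in the Na2SeO3 samples, giving -1.32 ± 0.03. The groups did not overlap in any of the 6. Their edgeR adjusted p-values ran from 2.11e-25 to 7.98e-21, and the last 5 formed a run in which neighbours differed by less than 2 times their combined standard error.

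**Figure D2:**
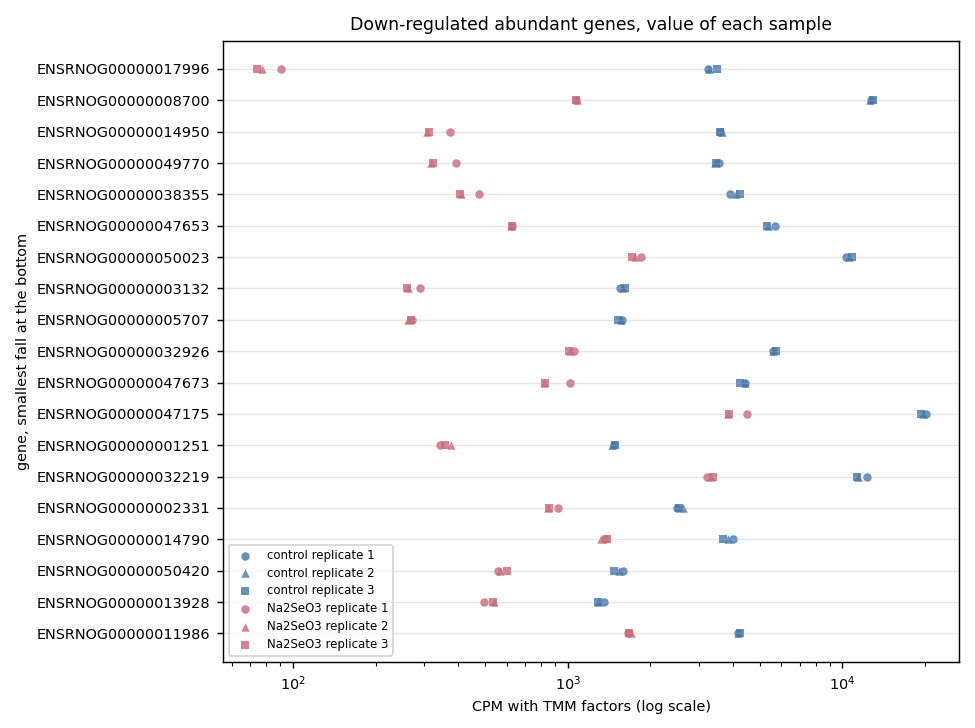
CPM with TMM library scaling of the 19 down-regulated genes in each of the 6 samples, on a log scale, with blue for the control group, red for the Na2SeO3 group and 1 marker shape per replicate. The deepest fall is at the top and the smallest, ENSRNOG00000011986, at the bottom. Control and Na2SeO3 samples do not overlap in any gene, which the call on the same difference makes likely.

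The share of each library that the abundant genes held is given as a description, since the 19 and the other 78 were divided by the same difference between the groups. The 19 down-regulated genes took 9.74%, 9.70% and 9.71% of the mRNA counts in control replicates 1, 2 and 3 and 2.19%, 2.04% and 2.06% in Na2SeO3 replicates 1, 2 and 3. Group means were 9.72% ± 0.02 and 2.10% ± 0.08 (SD, n = 3), a difference of -7.62 percentage points. The other 78 genes took 10.8% ± 0.24 without and 11.8% ± 0.43 after Na2SeO3 (SD, n = 3), 0.996 percentage points more. All 97 together went from 20.5% ± 0.25 to 13.9% ± 0.35 (SD, n = 3), a difference of -6.62 percentage points. Since shares of one library sum to a fixed total, the higher share of the 78 genes is relative to that total.

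**Figure D3:**
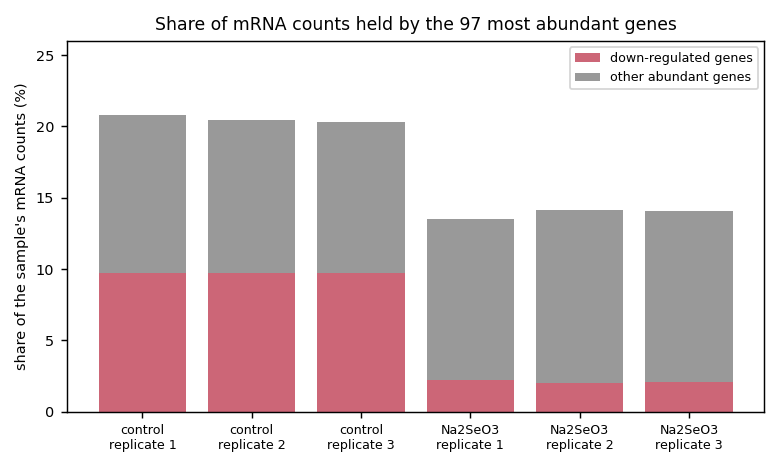
Share of each sample's mRNA counts (in %) held by the 19 down-regulated genes (red) and by the other 78 (grey), 1 bar per sample, stacked from 0. The red part drops from between 9.70% and 9.74% in the control samples to between 2.04% and 2.19% in the Na2SeO3 samples.

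Uniformity across samples was examined next, as the standard deviation (SD) of log2 CPM over the 3 samples of a group. Within the Na2SeO3 group this SD ranged from 0.01 to 0.18 over the 19 falling genes, with a median of 0.06. Their control SD had a median of 0.03 and a maximum of 0.07. The medians over the 896 genes that followed in rank were 0.05 (Na2SeO3) and 0.04 (control). Even the widest fall was narrow beside its size, since the distance between the highest and the lowest Na2SeO3 sample was 0.62% to 13.5% of the log2 fold change over the 19 genes. In 17 of them the SD of the Na2SeO3 group was above the counting error, which was at most 0.04.

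The most uniform falls were those of ENSRNOG00000047653 and ENSRNOG00000008700, in which the Na2SeO3 samples spanned 0.619% and 0.625% of the fall. The least uniform was that of ENSRNOG00000047673, at 13.5%. The second deepest fall was thus among the tightest. Several of the wider genes had Na2SeO3 replicate 1 on the same side. In 8 of the 19, a group picked after the values were seen, replicate 1 lay 0.11 to 0.31 log2 units above the mean of replicates 2 and 3. These were ENSRNOG00000047175, ENSRNOG00000047673, ENSRNOG00000038355, ENSRNOG00000014950, ENSRNOG00000049770, ENSRNOG00000002331, ENSRNOG00000017996 and ENSRNOG00000003132. In the other 11 genes the same difference lay between -0.11 and 0.10. Replicates 2 and 3 were within 0.10 log2 units of each other in each of the 19 genes. Replicate 1 was the highest Na2SeO3 sample in 12 of the 19 (63.2%), against 37.3% of all genes tested. Without Na2SeO3 replicate 1, the median SD of the 19 genes was 0.0157 over 2 samples, against 0.0637 over all 3. Since replicate 1 was singled out from these same values, a drop was built in. Without replicate 2 the median SD was 0.0783, and without replicate 3 it was 0.0808. With replicate 1 left out, all 19 were still down-regulated, and no log2 fold change moved by more than 0.11.

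**Figure D4:**
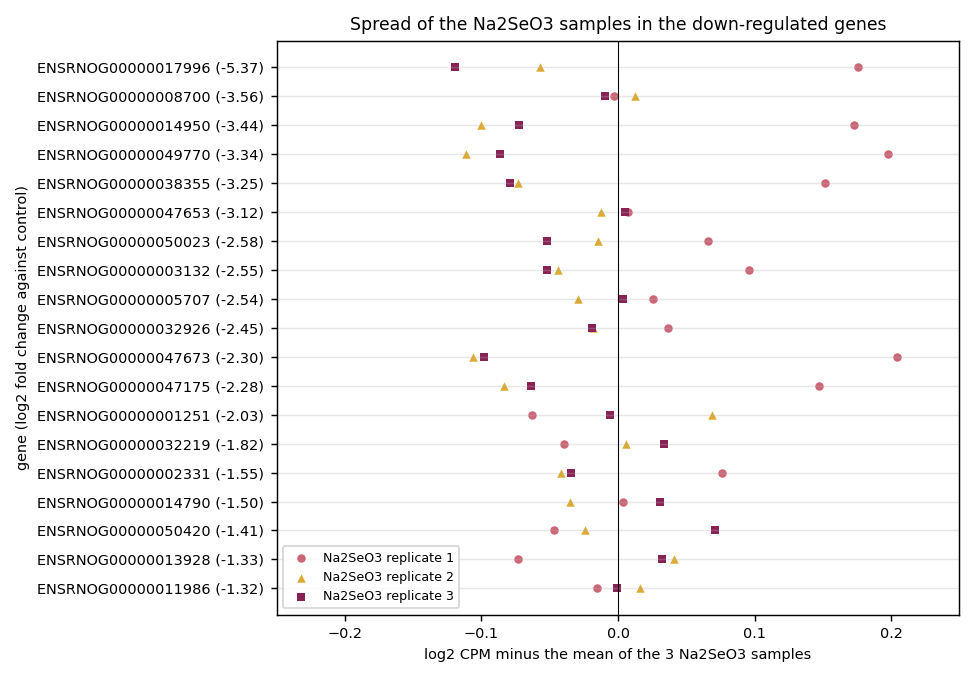
Log2 CPM of each Na2SeO3 sample minus the mean of the 3 Na2SeO3 samples for the 19 down-regulated genes, with the log2 fold change against control in brackets. Replicates 2 and 3 lie within 0.10 of each other in every gene, and replicate 1 lies to their right by 0.11 to 0.31 in 8 genes.

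Among the 78 genes outside the large falls, 8 varied far more between samples than the others. In these the SD of log2 CPM in the Na2SeO3 group was 0.22 to 0.55, while no other of the 97 exceeded 0.18, and the limit of 0.2 that divides them was set after the values were seen. ENSRNOG00000034234 (rank 3) had 10678, 10087 and 9602 CPM in control replicates 1, 2 and 3 and 7937, 10392 and 10207 CPM in Na2SeO3 replicates 1, 2 and 3, with a log2 fold change of -0.09 ± 0.06. For ENSRNOG00000031766 (rank 16) the control values were 2588, 2109 and 1928 CPM and the Na2SeO3 values 1716, 2534 and 2529 CPM, a log2 fold change of 0.03 ± 0.09. ENSRNOG00000030371 (rank 17) stood at 2997, 2487 and 2427 CPM in the control samples and at 1242, 2106 and 2098 CPM in the Na2SeO3 samples, giving -0.54 ± 0.11. In each of these 3 genes Na2SeO3 replicate 1 was the lowest sample of its group and control replicate 1 the highest of its own. ENSRNOG00000030700 (rank 24) had 2195, 1855 and 1738 CPM in control replicates 1, 2 and 3 and 1303, 1991 and 1971 CPM in Na2SeO3 replicates 1, 2 and 3, with a log2 fold change of -0.14 ± 0.09. For ENSRNOG00000030644 (rank 41) the control values were 1466, 1097 and 957 CPM and the Na2SeO3 values 930.0, 1672 and 1625 CPM, a log2 fold change of 0.26 ± 0.13. ENSRNOG00000029971 (rank 42) stood at 1619, 1342 and 1202 CPM in the control samples and at 813, 1415 and 1389.7 CPM in the Na2SeO3 samples, giving -0.20 ± 0.11. The same order of replicates held here, with Na2SeO3 replicates 2 and 3 less than 0.09 log2 units apart. ENSRNOG00000031979 (rank 53) had 1428, 1079 and 961 CPM in control replicates 1, 2 and 3 and 759.7, 1270.0 and 1246 CPM in Na2SeO3 replicates 1, 2 and 3, with a log2 fold change of -0.08 ± 0.12. For ENSRNOG00000031033 (rank 70) the control values were 1342, 934 and 865 CPM and the Na2SeO3 values 547, 1092 and 1029 CPM, a log2 fold change of -0.24 ± 0.14. In 8 of the 8 genes Na2SeO3 replicate 1 was lowest and replicate 2 highest, and control replicate 1 was highest and replicate 3 lowest. The 8 were picked by their spread in the Na2SeO3 group, and genes of the same samples are not replicates. Na2SeO3 replicate 1 was lowest in 36.4% of all genes tested and in 49.1% of the 896 genes that followed in rank. Control replicate 1 was highest in 5300 of the 14906 genes tested. Of the 896 genes that followed in rank, 1 had an SD over 0.2 in the Na2SeO3 group.

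For most of these 8 genes the call changed when replicate 1 was left out. In the fit of all samples only ENSRNOG00000030371 passed, as lower (edgeR adjusted p = 1.42e-04), and DESeq2 gave it an adjusted p of 0.0676. The remaining 7 had log2 fold changes from -0.24 to 0.26 and did not pass. Without Na2SeO3 replicate 1, ENSRNOG00000030371 stayed lower at -0.33 (edgeR adjusted p = 9.74e-07), while ENSRNOG00000031766 and ENSRNOG00000030644 passed as higher, at 0.20 and 0.49. With replicate 1 of both groups left out, an alternative added after the pattern was seen, 7 of the 8 passed as higher, with edgeR fits of 2 samples against 2, and ENSRNOG00000030371 passed as lower at -0.23. The largest of these rises was 0.68, of ENSRNOG00000030644. In all 8, control replicate 1 was the highest and Na2SeO3 replicate 1 the lowest of its group. Leaving these samples out therefore moved the 8 values upward by construction, and the 7 calls are not evidence of a rise. In the same fit 38 of the 97 genes passed as higher, in place of 24. The share of all genes tested that passed as higher in that fit was not counted. The 38 are therefore not read as a result about the 97. What sets replicate 1 apart was not tested.

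**Figure D5:**
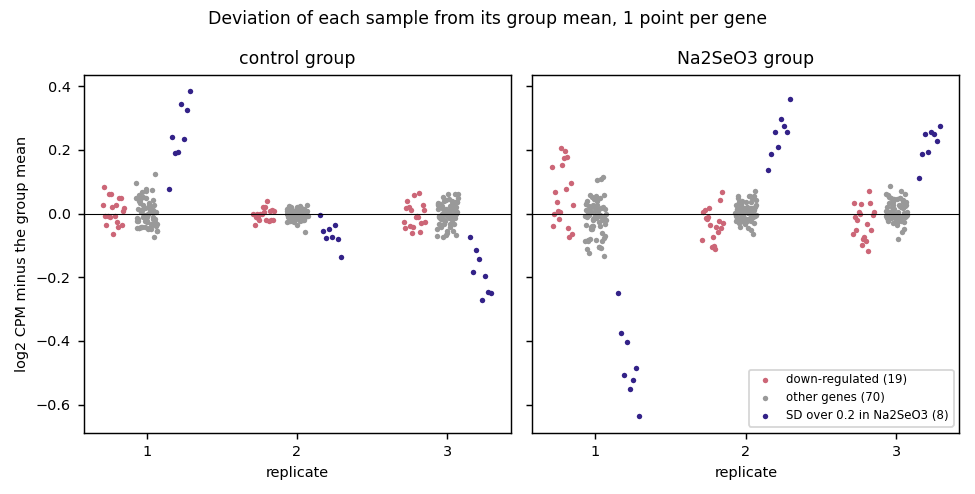
Log2 CPM of each sample minus the mean of its group, for the control group (left) and the Na2SeO3 group (right), with 1 point per gene: 19 down-regulated genes in red, 8 genes with an SD over 0.2 in dark blue and the other 70 in grey. The 8 genes lie high in control replicate 1 and low in Na2SeO3 replicate 1, and the red points reach highest in Na2SeO3 replicate 1.

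Seen over all 97 genes, Na2SeO3 replicates 2 and 3 were the closest pair of the same group. Their median absolute difference was 0.02 log2 units, with 0 genes over 0.2, against 0.06 and 15 genes for replicates 1 and 2 and 0.06 and 15 genes for replicates 1 and 3. In the control group replicates 2 and 3 differed by a median of 0.03 with 0 genes over 0.2, and replicate 1 differed from each of them by over 0.2 in 7 genes. The chi-square statistic per gene, at 1 for counting noise alone, was 3.06 between Na2SeO3 replicates 2 and 3 over the 97 genes and 2.18 over all genes tested. The counts of these samples thus differed by more than counting noise, and that they came from separate rats rests on the study's methods.

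Smaller falls were found for 24 genes, with log2 fold changes from -0.77 to -0.09. ENSRNOG00000008676 (rank 99) had 897, 935 and 962 CPM in control replicates 1, 2 and 3 and 546, 545 and 548 CPM in Na2SeO3 replicates 1, 2 and 3, with a log2 fold change of -0.77 ± 0.04. For ENSRNOG00000049560 (rank 39) the control values were 1713, 1692 and 1699.6 CPM and the Na2SeO3 values 1025, 1029 and 1012 CPM, a log2 fold change of -0.74 ± 0.04. ENSRNOG00000049695 (rank 33) stood at 1978, 1885 and 1858 CPM in the control samples and at 1120.1, 1251 and 1296 CPM in the Na2SeO3 samples, giving -0.64 ± 0.04. The Na2SeO3 samples of the first 2 were nearly equal to each other, and those of ENSRNOG00000049695 were lowest in replicate 1. For ENSRNOG00000046005 (rank 64) the control values were 1203, 1205 and 1206 CPM and the Na2SeO3 values 831, 819 and 799.9 CPM, a log2 fold change of -0.56 ± 0.04. The fifth largest of these falls was that of ENSRNOG00000030371, described above among the 8 variable genes. Beyond these 5, log2 fold changes between -0.52 and -0.24 were found for ENSRNOG00000009439, ENSRNOG00000015396, ENSRNOG00000057569, ENSRNOG00000016343, ENSRNOG00000034254, ENSRNOG00000012840 and ENSRNOG00000011144. Values between -0.23 and -0.09 belonged to ENSRNOG00000052802, ENSRNOG00000018630, ENSRNOG00000002517, ENSRNOG00000011329, ENSRNOG00000000065, ENSRNOG00000020266, ENSRNOG00000018183, ENSRNOG00000017589, ENSRNOG00000051911, ENSRNOG00000001205, ENSRNOG00000005434 and ENSRNOG00000017309. The groups overlapped in 1 of the 24, ENSRNOG00000017589, and in 15 of the 24 the 95% interval of the log2 fold change lay within 0.5 of zero.

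The smaller falls depended on the scaling of the libraries. When libraries were scaled by their total counts, the median over all genes tested moved from 0.01 to 0.16 on the log2 scale. Of the 24 genes, 12 then still passed as lower and 8 turned to positive values. The 12 that passed as lower under each of 4 other scalings were the first 12 named, from ENSRNOG00000008676 down to ENSRNOG00000011144 at -0.24. The 12 genes from ENSRNOG00000052802 onward lost the call under at least 1 of them. The 19 large falls were called under each of the 4. With total counts the smallest of them moved from -1.32 to -1.16. Shifts of this size could hardly carry a large fall past -1, so this stability says little.

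Rises were all under 2-fold. Of the 24 genes that passed as higher, each had its 3 Na2SeO3 samples above its 3 control samples, against 26.8% of all genes tested. The 24 were called on this same difference, so the separation is no added support. Each also passed as higher under the 4 other scalings. The median log2 fold change over all genes tested was 0.0062 with TMM factors and 0.0054, 0.0057, 0.036 and 0.165 with the 4 others. These scalings left the values nearly unchanged or raised them, so a rise could hardly lose its call and its stability says little. ENSRNOG00000013330 (rank 49) had 854, 848 and 829.9 CPM in control replicates 1, 2 and 3 and 1421, 1445 and 1454 CPM in Na2SeO3 replicates 1, 2 and 3, with a log2 fold change of 0.77 ± 0.04. For ENSRNOG00000008807 (rank 27) the control values were 1281, 1336 and 1347 CPM and the Na2SeO3 values 1934, 2118 and 2096 CPM, a log2 fold change of 0.63 ± 0.04. ENSRNOG00000003738 (rank 21) stood at 1541, 1522 and 1512 CPM in the control samples and at 2262, 2299.9 and 2283 CPM in the Na2SeO3 samples, giving 0.58 ± 0.03. These were the 3 largest rises, and none of them reached a log2 fold change of 1. For ENSRNOG00000017428 (rank 26) the control values were 1499, 1417 and 1408 CPM and the Na2SeO3 values 1948, 2184 and 2188 CPM, a log2 fold change of 0.55 ± 0.04. ENSRNOG00000010348 (rank 91) stood at 628, 612 and 610.1 CPM in the control samples and at 877, 890.4 and 884 CPM in the Na2SeO3 samples, giving 0.52 ± 0.04. In ENSRNOG00000017428 Na2SeO3 replicate 1 was lower than replicates 2 and 3, which were nearly equal, and in ENSRNOG00000010348 the 3 Na2SeO3 samples were alike. Log2 fold changes between 0.31 and 0.44 were found for ENSRNOG00000011042, ENSRNOG00000030625, ENSRNOG00000001622, ENSRNOG00000046366, ENSRNOG00000011227, ENSRNOG00000018185, ENSRNOG00000012892, ENSRNOG00000016306 and ENSRNOG00000011076. Those between 0.09 and 0.21 belonged to ENSRNOG00000016047, ENSRNOG00000011841, ENSRNOG00000051170, ENSRNOG00000020650, ENSRNOG00000006426, ENSRNOG00000020263, ENSRNOG00000017895, ENSRNOG00000057626, ENSRNOG00000015829 and ENSRNOG00000016638.

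The last 30 genes passed in neither direction. A missed threshold does not show that a level was kept, so their intervals are given. In 28 of the 30 the 95% interval lay within 0.5 log2 units of zero, that is, changes beyond 0.5 in either direction were outside the interval; the exceptions were ENSRNOG00000031033 and ENSRNOG00000030644 of the variable genes. Over all 97 genes 59 (60.8%) had such an interval, against 52.4% of all genes tested. The median Na2SeO3 SD of log2 CPM was 0.04 over the 97 and 0.11 over all genes tested. Narrow intervals were thus easier to reach among the 97, and the 2 shares are not like for like. For ENSRNOG00000004291 (rank 85) the control values were 817, 817 and 849 CPM and the Na2SeO3 values 821, 818 and 837 CPM, a log2 fold change of -0.004 ± 0.04 with an interval of -0.08 to 0.07. For ENSRNOG00000017158 (rank 66) the control values were 950.2, 987 and 1014 CPM and the Na2SeO3 values 969.5, 988 and 974 CPM, a log2 fold change of -0.01 ± 0.04 with an interval of -0.09 to 0.07. For ENSRNOG00000016398 (rank 68) the control values were 997, 983 and 947 CPM and the Na2SeO3 values 970.4, 966 and 959 CPM, a log2 fold change of -0.02 ± 0.04 with an interval of -0.09 to 0.06. These 3 were nearest to zero, and their control and Na2SeO3 samples overlapped. For ENSRNOG00000006532 (rank 100) the control values were 695, 718 and 753 CPM and the Na2SeO3 values 704, 727 and 711 CPM, a log2 fold change of -0.02 ± 0.04 with an interval of -0.10 to 0.06. For ENSRNOG00000061262 (rank 94) the control values were 732, 745 and 744 CPM and the Na2SeO3 values 747, 763 and 747 CPM, a log2 fold change of 0.02 ± 0.04 with an interval of -0.05 to 0.10. In ENSRNOG00000061262 the Na2SeO3 samples lay just above the control samples without passing the test. Whether these genes held depended on the scaling too. With total counts these 5 values moved to between 0.14 and 0.18, and 22 of the 30 passed as higher, so that the 30 are genes without a call relative to the TMM scaling.

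Besides these 5 and 7 of the 8 variable genes, 18 genes had no call. Those on the lower side, from -0.07 to -0.03, were ENSRNOG00000024907, ENSRNOG00000002840, ENSRNOG00000017816, ENSRNOG00000017206, ENSRNOG00000002021, ENSRNOG00000030680, ENSRNOG00000006178 and ENSRNOG00000025053. Those on the higher side, from 0.03 to 0.09, were ENSRNOG00000058898, ENSRNOG00000047179, ENSRNOG00000058561, ENSRNOG00000038436, ENSRNOG00000012346, ENSRNOG00000052051, ENSRNOG00000001682, ENSRNOG00000015420, ENSRNOG00000012207 and ENSRNOG00000061499. Their Na2SeO3 SD was at most 0.10. The 3 samples of one group lay wholly apart from the 3 of the other in 74 of the 97 genes, below in 45 (46.4%, against 27.2% of all genes tested) and above in 29 (29.9%, against 26.8%). The smaller spread of the 97 between samples makes such separation easier to reach.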

How the data were processed

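The authors deposited raw read counts per gene for 3 control and 3 Na2SeO3 samples, made from reads trimmed with Cutadapt, checked with FastQC and aligned with HISAT2, per the labels and the study's methods. Tool versions, genome build and counting program are not given in the sources used here. Counts were normalised with TMM factors and tested with the edgeR quasi-likelihood test (edgeR 4.0.16, R 4.3.3) on the 14906 genes that passed filterByExpr, with Benjamini-Hochberg adjustment. Calls used an adjusted p under 0.05 and a log2 fold change beyond 1, the thresholds in the study's methods. Over all genes tested they gave 779 down-regulated and 376 up-regulated genes here, more than the study reported in each direction. Printed levels are CPM with TMM scaling, ranks used column totals, and log2 CPM used a prior count of 0.5. The error after ± on a log2 fold change is an approximate standard error, its size over the root of the F statistic. DESeq2 1.42.0 and other scalings, filters, rankings and left-out samples were alternatives, and the scripts were tested on simulated data. Counting error is the sampling noise of the counts only. Where nothing says that samples came from separate litters or batches, p-values measure the spread between these samples.

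The members and lists were chosen with earlier results of these data known. Named with values are the down-regulated genes, the 5 largest smaller falls and rises, the 5 nearest to zero and the genes with an SD over 0.2. A rule to name few IDs without symbols was set aside, since each gene had to be accounted for. Of the 97 IDs, 0 matched the reference tables, so gene lists, markers and sequences were not used here. The lncRNA and circRNA tables were not used here.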

Additional observations from a re-analysis of the deposited data

How the results depend on the processing

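All 19 large falls passed in every one of the 16 alternative fits, with the highest log2 fold change at -1.16, of ENSRNOG00000011986 with total counts. With total counts 46 genes were higher in place of 24, and the median log2 fold change of the 97 turned from -0.0749 to 0.0835, as the median of all genes moved to 0.16. Ranked on the Na2SeO3 samples alone, the list held 9 down-regulated and 1 up-regulated gene, with a median of -0.0121. Ranks 1 to 50 held 28 lower and 11 higher genes with a median of -0.19. Ranks 1 to 200 held 1 up-regulated, 74 lower and 56 higher genes with a median of -0.0195. These lists differ in length by construction. All were read from the same fit, in which 23.7% of all genes tested were lower and 23.2% higher. With 1 sample or replicate 1 of both groups left out, the number of higher genes ranged from 21 to 38, the last without replicate 1 of both groups, an alternative added after the data were seen. The median SD of the 19 falls ranged from 0.0157, without Na2SeO3 replicate 1, to 0.0808, without Na2SeO3 replicate 3, each over the 2 samples left. Same-numbered samples are different animals, and the study's discussion calls model and control animals paired without saying how. Over all genes tested, deviations of same-numbered samples correlated at -0.015, -0.002 and 0.019, and those of differently numbered samples at -0.019 to 0.020. Noise of single genes can hide a shared litter or batch in such values, so they cannot show whether the numbers pair the samples. With the replicate block 19 genes were down-regulated, 0 up-regulated, 40 lower and 23 higher, with a median of -0.07. Shares over all genes tested were not counted for this fit or for those with samples left out. Their counts describe the 97 alone. Of 656 values of the 41 genes named with values, 614 kept their call or level, 27 gained a call, 14 without a call moved, 1 lost its call (ENSRNOG00000030371 with DESeq2) and 0 changed sign after a call. Depth was not limiting for the abundant genes, whose least count in a sample was 989.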
